A study of Mus musculus with 6 samples.

Results

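The 50 genes described here encode the machinery that copies nuclear DNA and the factors that prepare origins of replication for firing, together with the E-type and A-type cyclins, CDK2 and the activator E2F factors that surround it. They were chosen as the rows of the deposited count table whose gene name, split where a row joins several names, is on a fixed list of these genes. Of the 50 names, 48 were found among the 51499 loci of the table, and all 48 were tested among 14499 loci. The names *Cdt1* and *Gins2* matched no locus and were not analysed here. *Pole2* was measured only as part of a locus that also holds *Dnaaf2*, *Rpl36al* and 2 further names, so its value is that of the joined locus.

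The RNA came from WT MEFs, fibroblasts that were derived from mouse embryos. It was taken 72 h after reverse transfection of either a control siRNA, named Scr, or an siRNA that targets *Yme1l*, with 3 cultures per group and no other difference between the groups in the labels. *Yme1l* encodes the YME1L protease of the inner mitochondrial membrane. In the methods, the WT line made beside the *Yme1l* knockout is a clone with *Yme1l* loxP/loxP alleles, picked by genotype after exposure to Cre. They also describe other WT MEFs and do not say which received these siRNAs, so these alleles in all 6 cultures are an inference. Per the methods, cultures reached confluence during the 72 h with no change of medium, unless stated otherwise. The labels call the cells 3T3 immortalized, whereas the methods name SV40 large T antigen, and the values used here do not decide between these. Libraries were stranded, were made from poly(A)-selected RNA and were read as pairs. Nothing in the sources used here says whether same-numbered cultures were grown on 1 day.

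DNA replication starts in steps. In the gap before S phase, the origin recognition complex (ORC) and the licensing factors CDC6 and CDT1 load the ring-shaped MCM helicase onto origins, and geminin blocks a new round of loading until the next cycle. At the onset of S phase, the DBF4-dependent kinase CDC7 and the cyclin E and cyclin A partners of CDK2 turn the loaded rings into active helicases by recruiting CDC45 and the GINS complex, after which primase, the replicative polymerases, the sliding clamp and its loader copy both strands. Many of these genes are textbook targets of the E2F transcription factors, which RB-family proteins hold in check and which SV40 large T antigen is known to release.

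The libraries held between 37260605 and 45205207 counts. Counts were scaled to library size with edgeR's TMM method and are given as CPM, a count set against the scaled size of its library, and groups were compared with edgeR's quasi-likelihood test with Benjamini-Hochberg adjustment over all 14499 loci. A gene is called higher or lower where the adjusted p is under 0.05. Errors are SD over the 3 cultures unless a standard error (SE) is named, and p-values measure the spread between these cultures only. The targeted gene, *Yme1l1*, stood at 170.5, 171 and 171 CPM in the Scr cultures and 31.6, 23.4 and 45.0 CPM in the Yme1l siRNA cultures, which is a log2 fold change of -2.36 ± 0.20 (SE). Of 10 fibroblast markers, 8 were tested and 7 were lower after Yme1l siRNA, and the summed level of all 10 ranged from 34040 to 41220 CPM in the Scr cultures and from 18300 to 22740 CPM in the Yme1l siRNA cultures. *Thy1* and *Lum* were near 0 in every library. Of 14 markers of immune, endothelial, epithelial, neural, muscle and liver cells, 13 were found, of which *Adgre1*, *Myod1* and *Alb* were at 0 in every library and 10 stayed under 1 CPM in all of them. The neural marker *Tubb3* matched no locus. Of the 5 that were tested, *Csf1r* and *Krt8* were higher after Yme1l siRNA, *Krt8* at under 1 CPM. The summed level of the 13 ranged from 165.9 to 182 CPM in the Scr cultures and from 246 to 259.7 CPM in the Yme1l siRNA cultures, nearly all of it from *Csf1r* and *Cd68*. The part of these shifts in the results below was not tested. In RNA from whole cultures, more cells in S phase and more transcript per cell cannot be told apart.

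Most of the replication genes were higher after Yme1l siRNA. Of the 48 genes measured, 40 were higher (83.3%), 2 were lower and 6 did not pass the test, whereas 28.4% of all loci tested were higher, 29.6% were lower and 58.0% changed in either direction. In 43 of the 48, all 3 Yme1l siRNA cultures lay above all 3 Scr cultures, against 31.9% of all loci. The median log2 fold change was 0.68, against 0.01 over all loci, and the folds of the 40 genes ranged from 1.25 to 3.32. At least 2-fold increases that passed the test were found for 7 genes, against 8.18% of all loci. These 7 were *Ccne2*, *Cdc6*, *Ccne1*, *Rfc5*, *Prim1*, *Orc1* and *Pole*. Together the 48 genes took 3191 ± 129 CPM in the Scr cultures and 4837 ± 183 CPM in the Yme1l siRNA cultures, a ratio of 1.52.

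**Figure D1:**
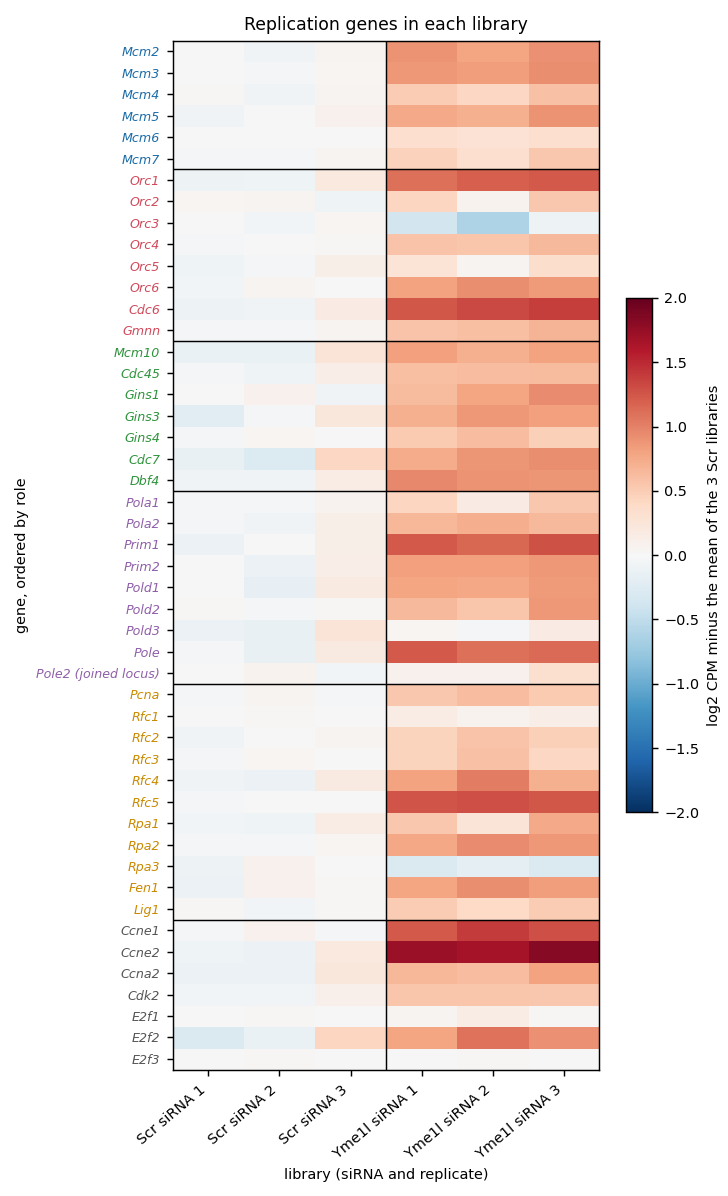
Heat map of the 48 genes (rows, coloured and ruled off by role) in each of the 6 libraries (columns). Colour gives log2 CPM minus the mean of the 3 Scr libraries, from -2 (blue) to 2 (red), and most rows are red in all 3 Yme1l siRNA libraries, while *Orc3* and *Rpa3* are blue and *E2f1*, *E2f3*, *Pold3* and *Rfc1* stay near white.

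The increase ran through every functional group. All 6 genes of the helicase core and all 7 measured genes of helicase activation were higher, as were 6 of 8 genes of origin recognition and licensing, 7 of 9 of the polymerases and primase, 9 of 11 of the clamp, its loader, the single-strand binding protein and flap processing, and 5 of 7 of the cyclins, CDK2 and E2F factors. The group medians of the log2 fold change lay between 0.53 and 0.79. Within each group the genes differed more than the groups did, as the plot of fold changes shows. The library of Scr culture 3 held the highest value of its group for 32 of the 48 genes, and without it the count of higher genes was 39 and the median log2 fold change was 0.72.

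**Figure D2:**
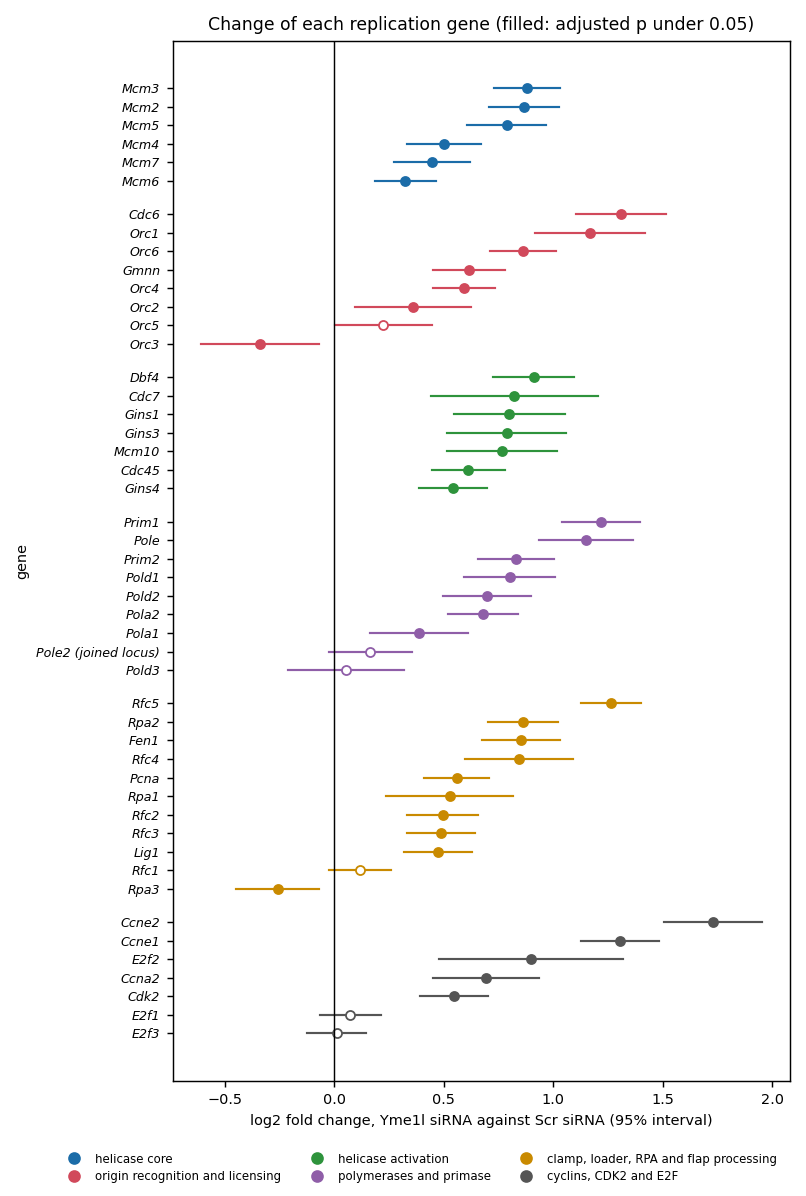
Log2 fold change of each gene between Yme1l siRNA and Scr siRNA, with its 95% interval from the edgeR fit, sorted within each role (colours). Filled points passed the test: 40 genes lie to the right of 0, *Orc3* and *Rpa3* lie to its left, and the 6 open points did not pass.

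Since these genes moved together, their promoters were searched for words that E2F factors and other cell cycle regulators are known to bind. RefSeq windows of 300 bases, from 250 before to 50 after each annotated start (GRCm38.p6, the assembly called mm10), were given for 40 of the 50 names. An E2F-type word (TTTCCCGC, TTTCGCGC, TTTGCCGC or TTTGGCGC, on either strand) was found for 18 of the 40 genes (45.0%), against 2.6% of 27025 genes in the same table, where a gene with several starts was counted once. Genes that were higher held it in 13 of 31 cases (41.9%), and measured genes that were not higher held it in 4 of 8 (50%). The 4 include *Pole2*, whose call is that of its joined locus. The CHR word (TTTGAA), which the DREAM complex is known to bind in late cell cycle genes, was found for 22.5% of the replication genes and 20.2% of all genes, and a CCAAT box for 60.0% and 41.1%. In no replication gene did an E2F-type word and a CHR word overlap. Among 25 mitosis genes, 22 had a window, of which 4.55% held an E2F-type word and 72.7% the CHR word. These are matches of letters, which describe the windows and do not show that a factor is bound.

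**Figure D3:**
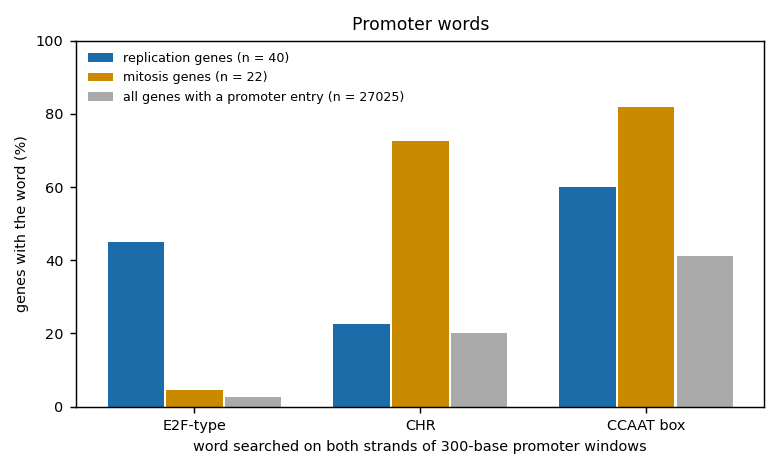
Share of genes (%) whose 300-base promoter window holds each word on either strand, for the replication genes, the mitosis genes and all genes with a window. The E2F-type word is found in 45.0% of the replication genes and 4.55% of the mitosis genes, and the CHR word in 22.5% and 72.7%.

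The stretches printed here were chosen to set promoters of genes that were higher beside those of genes that were not. Each reads 5′ to 3′ on the gene's strand and lies before the RefSeq start, and capitals mark the E2F-type words. *Mcm5* and *Mcm6* hold words that overlap on opposite strands, and those of *Mcm6* begin 110, 106 and 47 bases before the start. *Orc1* and *Cdc6* hold 1 word each, beginning 27 and 138 bases before the start. *Orc3*, which was lower, and *E2f3*, which did not pass the test, also hold 1 word each, beginning 41 and 11 bases before the start. The stretches are chr8:75109332-75109391 (+ strand) for *Mcm5*, chr1:128359721-128359839 (- strand) for *Mcm6*, chr4:108579416-108579445 (+ strand) for *Orc1*, chr11:98907989-98908044 (+ strand) for *Cdc6*, chr4:34614965-34614994 (- strand) for *Orc3* and chr13:29986064-29986098 (- strand) for *E2f3*.
Mcm5: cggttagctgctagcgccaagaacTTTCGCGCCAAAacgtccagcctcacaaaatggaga
Mcm6: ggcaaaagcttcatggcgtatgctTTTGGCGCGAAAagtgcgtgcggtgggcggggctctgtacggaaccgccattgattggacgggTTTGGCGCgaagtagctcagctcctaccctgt
Orc1: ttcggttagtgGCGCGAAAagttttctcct
Cdc6: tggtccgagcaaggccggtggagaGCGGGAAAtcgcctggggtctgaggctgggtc
Orc3: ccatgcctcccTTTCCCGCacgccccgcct
E2f3: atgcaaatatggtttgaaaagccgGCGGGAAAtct
Of the stretches shown, only those of *Orc1* and *Orc3* touch an exon in GENCODE M21, the first one of *Orc1* itself and the second one of the neighbouring *Rars2*. For 7 of the 18 genes, *Mcm3*, *Cdt1*, *Pold1*, *Pold3*, *Pole2*, *Lig1* and *E2f2*, the only words lie after the start. No window was given for *Mcm4*, *Gmnn*, *Gins1*, *Gins2*, *Gins4*, *Prim2*, *Pole*, *Rfc2*, *Ccne2* and *Ccna2*.

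Among the cyclins, CDK2 and E2F factors, both E-type cyclins rose most and the E2F genes went separate ways. *Ccne2* (chr4:11191351-11204779) encodes cyclin E2, which activates CDK2 at the entry into S phase. It stood at 24.7, 24.1 and 30.1 CPM in the Scr cultures and 86.3, 82.8 and 92.7 CPM in the Yme1l siRNA cultures. This 3.32-fold increase (log2 fold change 1.73 ± 0.10 SE, adjusted p = 7.67e-06) was the largest among the 48 genes. *Ccne1* (chr7:38097984-38107534), the gene of cyclin E1, stood at 20.4, 22.3 and 20.3 CPM in the Scr cultures and 49.0, 55.6 and 51.0 CPM in the Yme1l siRNA cultures and rose 2.47-fold (log2 fold change 1.30 ± 0.08 SE, adjusted p = 8.68e-06). *Cdk2*, the kinase that both cyclins activate, rose by less, with 55.0, 55.1 and 61.5 CPM in the Scr cultures and 83.6, 83.8 and 83.1 CPM in the Yme1l siRNA cultures, or 1.46-fold (log2 fold change 0.55 ± 0.07 SE, adjusted p = 2.39e-04). For these 3 genes every Yme1l siRNA culture lay above every Scr culture, as was so for 31.9% of all loci. *Ccna2*, whose product cyclin A2 binds CDK2 later in S phase, had a log2 fold change of 0.69, and *E2f2* one of 0.90, at a level of 8.48 ± 2.36 CPM in the Scr cultures and 15.8 ± 1.58 CPM in the Yme1l siRNA cultures.

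*E2f1* and *E2f3*, the other activator E2F genes, did not pass the test. *E2f1* (chr2:154559407-154569892) stood at 46.9, 47.6 and 46.8 CPM in the Scr cultures and 48.8, 51.9 and 47.8 CPM in the Yme1l siRNA cultures. All 3 Yme1l siRNA values lay above the Scr values, but the log2 fold change was 0.07, with a 95% interval of -0.07 to 0.21 (adjusted p = 0.337). *E2f3* (chr13:29906575-29986063) stood at 82.4, 83.6 and 81.8 CPM in the Scr cultures and 82.9, 84.0 and 82.6 CPM in the Yme1l siRNA cultures, and its groups overlapped, with a log2 fold change of 0.01 and an interval of -0.13 to 0.15 (adjusted p = 0.899). Both intervals leave out a change as large as that of *E2f2*.

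**Figure D4:**
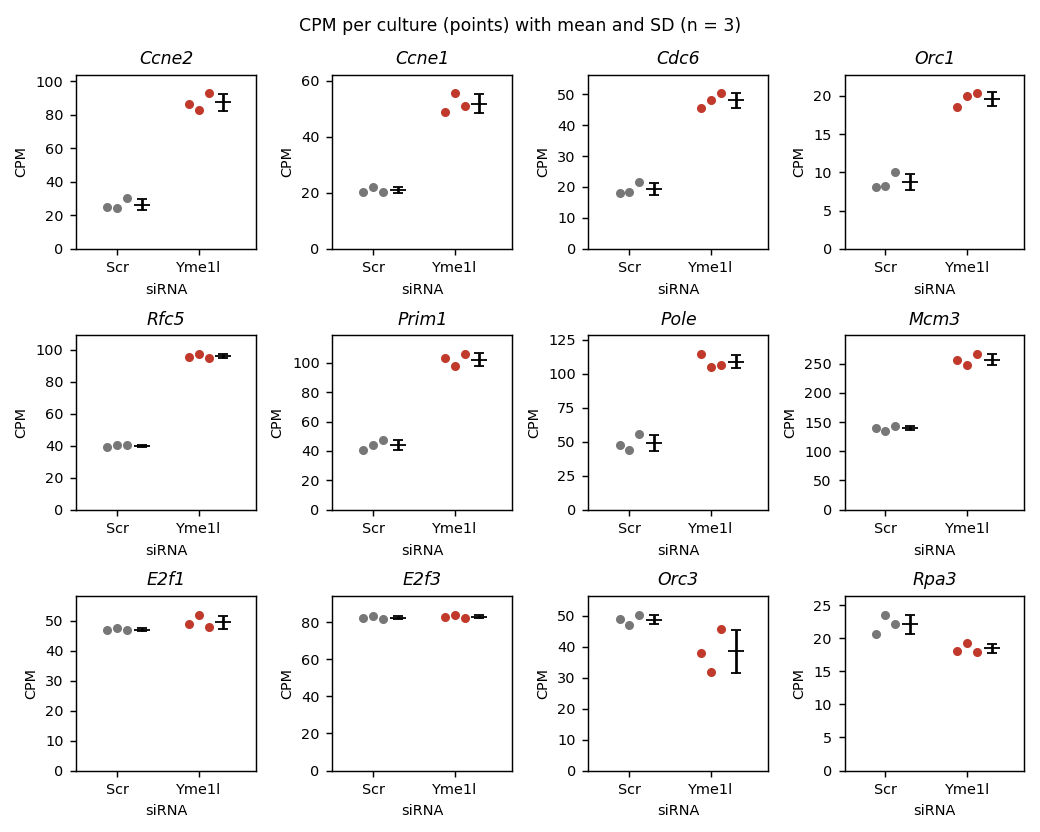
CPM of 12 genes in each culture (points) with the mean and SD of the 3 cultures beside them, for Scr siRNA (grey) and Yme1l siRNA (red), on axes that start at 0. The groups are far apart for *Ccne2*, *Ccne1*, *Cdc6*, *Orc1*, *Rfc5*, *Prim1*, *Pole* and *Mcm3*, close together for *E2f1* and *E2f3*, and lower after Yme1l siRNA for *Orc3* and *Rpa3*.

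In origin recognition and licensing, *Cdc6* and *Orc1* rose most. *Cdc6* (chr11:98907801-98923940), which loads MCM together with ORC, stood at 18.1, 18.4 and 21.6 CPM in the Scr cultures and 45.5, 48.1 and 50.3 CPM in the Yme1l siRNA cultures. It rose 2.48-fold (log2 fold change 1.31 ± 0.09 SE, adjusted p = 1.48e-05), and the lowest Yme1l siRNA culture lay far above the highest Scr culture. *Orc1* (chr4:108579423-108614833), the ORC subunit that is destroyed after origins fire in many mammalian cells, stood at 8.06, 8.15 and 9.98 CPM in the Scr cultures and 18.6, 20.0 and 20.3 CPM in the Yme1l siRNA cultures, a 2.25-fold increase (log2 fold change 1.17 ± 0.11 SE, adjusted p = 5.65e-05). *Orc6*, the smallest ORC subunit, stood at 32.7, 35.4 and 33.7 CPM in the Scr cultures and 59.2, 64.2 and 61.2 CPM in the Yme1l siRNA cultures, 1.82-fold higher (log2 fold change 0.86 ± 0.07 SE, adjusted p = 2.34e-05). *Gmnn*, the gene of the licensing inhibitor geminin, also rose, with a log2 fold change of 0.62, and *Orc4* with one of 0.59. The balance between *Gmnn* and its target *Cdt1* could not be given, since *Cdt1* was not analysed here.

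*Orc2*, *Orc3* and *Orc5* changed by less than *Orc1*, and *Orc3* in the other direction. *Orc3* (chr4:34570796-34614944) fell, with 48.9, 47.1 and 50.2 CPM in the Scr cultures and 38.0, 31.9 and 45.7 CPM in the Yme1l siRNA cultures and a log2 fold change of -0.34 ± 0.12 (SE, adjusted p = 0.0357). The groups did not overlap, but *Orc3* passed in only 1 of 6 fits without 1 of the cultures, the one without Yme1l siRNA culture 3, and adjusted p reached 0.101 without Yme1l siRNA culture 1. Without Yme1l siRNA culture 2, the lowest of its group, the log2 fold change was -0.21. *Orc2* had a log2 fold change of 0.36 (adjusted p = 0.0269), with values of 36.9, 37.4 and 33.8 CPM in the Scr cultures and 48.4, 37.9 and 52.5 CPM in the Yme1l siRNA cultures, and it too passed in only 1 of these 6 fits, the one without Yme1l siRNA culture 2. *Orc5* stood at 25.7, 26.6 and 29.7 CPM in the Scr cultures and 32.9, 28.2 and 34.6 CPM in the Yme1l siRNA cultures. Its groups overlapped, and the log2 fold change of 0.22 had an interval of 0.00 to 0.45 (adjusted p = 0.0795). Without Yme1l siRNA culture 2 it passed (adjusted p = 0.0185). On the log2 CPM scale, *Orc1* stood -2.00 ± 0.16 relative to the mean of *Orc2* to *Orc6* in the Scr cultures and -1.17 ± 0.14 in the Yme1l siRNA cultures. The difference of 0.84 had a 2-sided exact permutation p of 0.1, the smallest that 3 against 3 cultures allow.

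All 6 subunits of the MCM helicase rose. *Mcm3* stood at 140.5, 135 and 144 CPM in the Scr cultures and 256, 249 and 267 CPM in the Yme1l siRNA cultures and rose 1.84-fold (log2 fold change 0.88 ± 0.07 SE, adjusted p = 2.20e-05). *Mcm2*, at 128, 122 and 133 CPM in the Scr cultures and 237, 222 and 241 CPM in the Yme1l siRNA cultures, rose 1.82-fold (log2 fold change 0.87 ± 0.07 SE, adjusted p = 2.98e-05). *Mcm5*, at 105, 109 and 116 CPM in the Scr cultures and 185, 179 and 205 CPM in the Yme1l siRNA cultures, rose 1.73-fold (log2 fold change 0.79 ± 0.08 SE, adjusted p = 7.73e-05). For all 6 subunits every Yme1l siRNA culture lay above every Scr culture, as was so for 31.9% of all loci. The log2 fold changes of *Mcm4*, *Mcm7* and *Mcm6* were smaller, at 0.50, 0.45 and 0.32. On the RPKM scale, which divides CPM by the length of the annotated exons in kilobases and so allows levels of different genes to be set side by side, the 6 subunits spanned 18.4 RPKM for *Mcm2* to 49.9 RPKM for *Mcm4* in the Scr cultures, a ratio of 2.71. After Yme1l siRNA the same genes marked the ends, at 33.5 and 70.7 RPKM, a ratio of 2.11. The place of *Mcm2* at the low end rests on its exon length, the longest of the 6 at 6956 bases, against 3589 for *Mcm4*. In CPM, *Mcm2* lay above *Mcm5* in both groups.

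All 7 measured genes of helicase activation rose, with log2 fold changes between 0.54 and 0.91. *Dbf4*, the regulatory subunit of the kinase that CDC7 forms, stood at 54.9, 54.8 and 64.2 CPM in the Scr cultures and 113, 107 and 106 CPM in the Yme1l siRNA cultures and rose 1.88-fold (log2 fold change 0.91 ± 0.08 SE, adjusted p = 4.52e-05). *Cdc45*, which joins MCM in the active helicase, stood at 45.6, 44.1 and 51.2 CPM in the Scr cultures and 71.0, 71.8 and 72.6 CPM in the Yme1l siRNA cultures and rose 1.53-fold (log2 fold change 0.61 ± 0.07 SE, adjusted p = 1.85e-04). For both, the Yme1l siRNA cultures were closely grouped above the Scr cultures. *Gins4*, a subunit of the GINS complex, stood at 28.3, 29.7 and 29.0 CPM in the Scr cultures and 41.7, 44.4 and 40.5 CPM in the Yme1l siRNA cultures, 1.46-fold higher (log2 fold change 0.54 ± 0.07 SE, adjusted p = 2.38e-04). The log2 fold changes of *Gins1* and *Gins3* were 0.80 and 0.79, that of *Mcm10*, which helps to activate the helicase, was 0.77, and that of the kinase gene *Cdc7* was 0.82. Scr culture 3 lay apart from the other Scr cultures for *Cdc7*, at 25.4 CPM against 17.1 and 15.7 CPM, and below the lowest Yme1l siRNA value of 31.6 CPM.

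Among polymerases and primase, the small primase subunit and the catalytic subunit of polymerase epsilon stood out. *Prim1* (chr10:128015168-128030037), which makes the RNA part of each primer, stood at 40.4, 44.1 and 47.4 CPM in the Scr cultures and 103, 97.7 and 106 CPM in the Yme1l siRNA cultures and rose 2.32-fold (log2 fold change 1.22 ± 0.08 SE, adjusted p = 1.19e-05). *Pole* (chr5:110286306-110337474), the polymerase of the leading strand, stood at 47.4, 44.3 and 55.6 CPM in the Scr cultures and 115, 105 and 107 CPM in the Yme1l siRNA cultures and rose 2.22-fold (log2 fold change 1.15 ± 0.09 SE, adjusted p = 3.00e-05). *Prim2*, the large primase subunit, stood at 32.6, 30.0 and 35.7 CPM in the Scr cultures and 57.5, 57.7 and 59.6 CPM in the Yme1l siRNA cultures and rose 1.78-fold (log2 fold change 0.83 ± 0.08 SE, adjusted p = 4.95e-05). All Yme1l siRNA cultures lay above all Scr cultures for these 3 genes, as was so for 31.9% of all loci. Of polymerase alpha, which extends the primers, *Pola2* had a log2 fold change of 0.68 and the catalytic subunit gene *Pola1* one of 0.39. Of polymerase delta, which copies the lagging strand, *Pold1* and *Pold2* had log2 fold changes of 0.80 and 0.70.

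*Pold3*, an accessory subunit of polymerase delta, did not share the increase of *Pold1* and *Pold2*. It stood at 31.5, 30.9 and 40.9 CPM in the Scr cultures and 35.1, 33.6 and 38.4 CPM in the Yme1l siRNA cultures, with Scr culture 3 above every other culture. The log2 fold change was 0.05, with an interval of -0.21 to 0.32 (adjusted p = 0.718), and its sign turned in 3 of 6 fits without 1 of the cultures. The joined locus that holds *Pole2*, the second subunit of polymerase epsilon, stood at 128, 136 and 125 CPM in the Scr cultures and 138, 137 and 161 CPM in the Yme1l siRNA cultures, with a log2 fold change of 0.16 and an interval of -0.03 to 0.36 (adjusted p = 0.123). How much of it comes from *Pole2* cannot be read from the table.

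The clamp loader was uneven. *Rfc5* (chr5:117378103-117389047), a small loader subunit, stood at 39.1, 40.4 and 40.3 CPM in the Scr cultures and 95.7, 97.4 and 94.9 CPM in the Yme1l siRNA cultures. Its 2.40-fold increase (log2 fold change 1.26 ± 0.06 SE, adjusted p = 5.10e-06) had the smallest adjusted p of the 48 genes, and the cultures of each group lay close together. The other small subunits rose by less, with log2 fold changes of 0.84 for *Rfc4*, 0.49 for *Rfc2* and 0.49 for *Rfc3*. *Rfc1*, the large subunit that is particular to the replication loader, stood at 118, 120.4 and 118 CPM in the Scr cultures and 132, 125 and 131 CPM in the Yme1l siRNA cultures. Its Yme1l siRNA values all lay above the Scr values, but the log2 fold change of 0.12 did not pass the test, with an interval of -0.03 to 0.26 (adjusted p = 0.141). *Pcna*, the sliding clamp that the complex loads, had a log2 fold change of 0.56 and, at 77.6 ± 2.29 RPKM in the Scr cultures and 114 ± 3.98 RPKM in the Yme1l siRNA cultures, the highest level per exon length of all genes on the list that could be placed on this scale.

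The 3 subunits of RPA, which coats single-stranded DNA, went in different directions. *Rpa2* stood at 26.7, 27.0 and 28.2 CPM in the Scr cultures and 46.8, 52.4 and 49.8 CPM in the Yme1l siRNA cultures and rose 1.82-fold (log2 fold change 0.86 ± 0.07 SE, adjusted p = 2.98e-05). *Rpa1*, the large subunit, had a log2 fold change of 0.53, with a wide range among the Yme1l siRNA cultures, from 316 to 447 CPM. *Rpa3* (chr6:8255936-8259173), the smallest subunit, fell, with 20.6, 23.5 and 22.2 CPM in the Scr cultures and 18.1, 19.3 and 18.0 CPM in the Yme1l siRNA cultures. The groups did not overlap, and the log2 fold change was -0.26 ± 0.08 (SE, adjusted p = 0.0261), and it did not pass without Scr culture 2, Yme1l siRNA culture 1 or Yme1l siRNA culture 3. The genes that finish lagging-strand fragments both rose. *Fen1*, the flap nuclease, stood at 62.1, 70.9 and 68.3 CPM in the Scr cultures and 116, 127 and 120.1 CPM in the Yme1l siRNA cultures, 1.81-fold higher (log2 fold change 0.85 ± 0.08 SE, adjusted p = 4.80e-05), and *Lig1*, the ligase that seals the fragments, had a log2 fold change of 0.47.

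Levels per exon length put the scarce genes apart from the abundant ones. In the Scr cultures, *E2f2* and *Orc1* had the lowest levels, at 1.74 ± 0.482 and 2.51 ± 0.311 RPKM, followed by *Cdc6* at 3.70 ± 0.375 RPKM, and of these neighbours *E2f2* and *Orc1* differed by less than the sum of their SDs. Within ORC, *Orc6* was the most abundant subunit and *Orc1* the least, a ratio of 5.47. After Yme1l siRNA *Orc1* reached 5.64 ± 0.267 RPKM, within the spread of *Orc5* at 5.18 ± 0.538 RPKM and of *Orc3* at 6.33 ± 1.13 RPKM. The exon length joins the exons of all annotated transcripts, so a gene with long rare transcripts is placed too low. The balance between *Ccne1* and *Ccna2* within a culture, as a difference of log2 CPM, was -2.54 ± 0.24 in the Scr cultures and -1.93 ± 0.16 in the Yme1l siRNA cultures. The shift of 0.60 toward cyclin E1 had a 2-sided exact permutation p of 0.1, again the smallest possible.

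**Figure D5:**
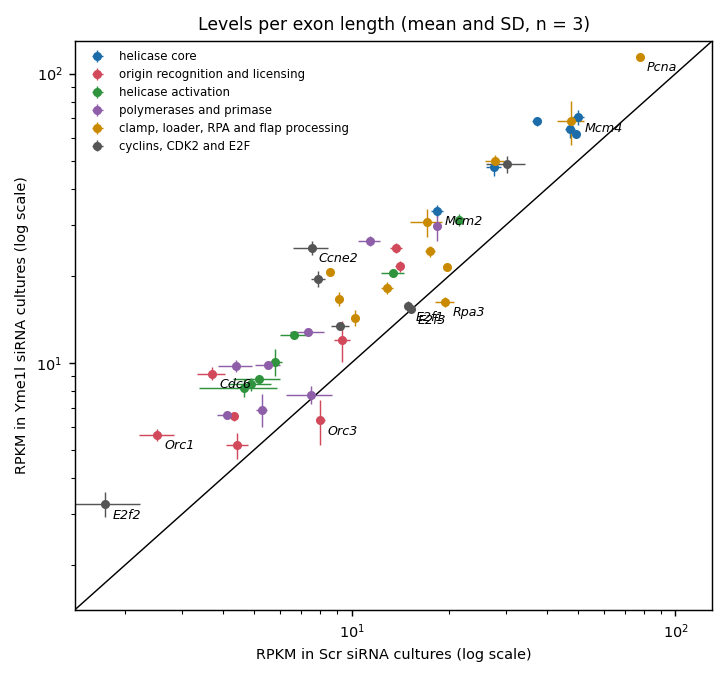
Mean RPKM (CPM per kilobase of annotated exons, log axes) of the 47 genes with their own locus in the Scr cultures (horizontal) and the Yme1l siRNA cultures (vertical), with SD bars (n = 3). The line marks equal levels: most points lie above it over the whole range from *E2f2* to *Pcna*, *E2f1* and *E2f3* lie close to it, and *Orc3* and *Rpa3* lie below it.

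Other genes of the pathway were read from lists chosen by function. Of 39 further replication genes, 37 were tested, 26 were higher, 2 were lower and 9 did not pass, with a median log2 fold change of 0.57. Among all loci 28.4% were higher and 29.6% lower. *Atad5*, which unloads the clamp, *Recql4*, a helicase that acts in initiation, and *Wdhd1*, which ties polymerase alpha to the helicase, had log2 fold changes of 1.33, 1.45 and 1.24. *Dna2*, a nuclease of flap processing that was singled out after its values were seen, had the largest change in this list, with 4.94, 4.79 and 7.66 CPM in the Scr cultures and 24.6, 24.9 and 27.5 CPM in the Yme1l siRNA cultures, a log2 fold change of 2.14 (adjusted p = 3.03e-05). The genes that fell were *Top2b*, a topoisomerase of cells in and out of the cycle, at -0.55, and *Ddb1*, an adaptor of the ligase that destroys CDT1, at -0.30, a call that did not hold without Scr culture 1 or Scr culture 2 (adjusted p = 0.0748 and 0.0544). *Pold4* and *Skp2* were near 0 in every library and were not tested, and with the counting program unknown these counts are not read as a lack of expression.

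The genes that regulate E2F output went both ways. Of 15 E2F and DREAM regulators, 10 were higher and 4 were lower, against 28.4% and 29.6% of all loci. *Tfdp1*, the main dimer partner of E2F factors, stood at 91.4, 87.1 and 89.3 CPM in the Scr cultures and 246, 248 and 249 CPM in the Yme1l siRNA cultures, a log2 fold change of 1.47, whereas the related *Tfdp2* fell, with one of -0.61. *Mybl2*, which turns the MuvB core toward activation, stood at 28.9, 32.7 and 39.7 CPM in the Scr cultures and 138, 148 and 133 CPM in the Yme1l siRNA cultures, a log2 fold change of 2.05, and the MuvB subunit gene *Lin54* had one of 1.29. Of the pocket protein genes, *Rbl2* and *Rb1* fell, with log2 fold changes of -1.13 and -1.33. *Rbl1*, also a pocket protein gene, was higher, with a log2 fold change of 0.24 (adjusted p = 0.0162). *Rb1* stood at 6.93, 6.98 and 8.08 CPM in the Scr cultures and 3.16, 2.90 and 2.66 CPM in the Yme1l siRNA cultures, and *Rbl2* at 42.5, 40.1 and 47.3 CPM in the Scr cultures and 20.0, 17.4 and 21.9 CPM in the Yme1l siRNA cultures. Apart from *Rbl1*, these 6 were named because they had the smallest adjusted p of the called genes in each direction. That they passed was set by the choice. Their groups did not overlap. Among all loci, 31.9% had every Yme1l siRNA culture above every Scr culture and 33.6% had every one below. The repressor gene *E2f4* was lower, at -0.38 (adjusted p = 0.0293). However, *E2f4* passed in only 1 of 6 fits without 1 of the cultures, the one without Yme1l siRNA culture 3. It stood at -0.25 without Yme1l siRNA culture 2. *E2f5*, *E2f6*, *E2f7* and *E2f8*, the other E2F genes on this list, were higher, with log2 fold changes of 0.44, 1.23, 1.38 and 1.29.

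The 25 mitosis genes, which work later in the cycle, were the nearest group for comparison. Of these, 16 were higher, 0 were lower and 9 did not pass in edgeR, with a median log2 fold change of 0.56. Among all loci 28.4% were higher. DESeq2 called 16 of the mitosis genes higher and limma-voom 15. *Birc5*, a subunit of the chromosomal passenger complex, *Ttk*, a kinase of the spindle checkpoint, and *Cdca8*, a partner of *Birc5*, had log2 fold changes of 1.04, 0.83 and 0.77. No mitosis gene was lower at an unadjusted p under 0.05 in edgeR, and 0 were lower in DESeq2 and in limma-voom. Among those that did not pass was *Kif11*, a spindle motor that dividing cells need, which had only 10 to 152 counts in a library and was singled out after its values were seen. Whether the mitosis and replication genes differed in size of change was not tested.

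Some reads on these genes cannot be assigned with certainty, since the sources used here do not say which program counted them or whether it used the strand. Exons of 15 of the 48 genes overlap those of a gene on the other strand. Partners were taken from transcripts that align over 200 bases or more, and of the 8 that were tested, 3 fell, 2 rose and 3 did not pass. This choice left out 2 larger exon overlaps. *Ufd1*, which shares 209 bases with *Cdc45*, rose with a log2 fold change of 0.55, and *Gm12743*, which shares 376 bases with *Orc1*, was not examined. *Ints8*, which overlaps *Ccne2*, *Wsb2*, which overlaps *Rfc5*, and *Ap4m1*, which overlaps *Mcm7*, fell, with log2 fold changes of -0.50, -0.45 and -0.70. *Exosc9*, which overlaps *Ccna2*, and *Acvr2a*, which overlaps *Orc4*, rose, with 0.32 and 0.31. *Nif3l1*, *Lat2* and *Zswim9*, which overlap *Orc2*, *Rfc2* and *Lig1*, had log2 fold changes of 0.02, -0.04 and -0.20. A near-identical copy with counts of its own was found for *Pcna*, *Cdc6* and *Rfc5*. *Pcna-ps2* had between 53 and 116 counts in a library, *Gm12870*, the copy of *Rfc5*, between 13 and 43, and *Gm9430*, the copy of *Cdc6*, at most 4, whereas the 48 genes had between 272 and 18818 counts.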

How the data were processed

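The authors mapped the reads to mm10 (Ensembl 91) with HiSat 2.0.4, assembled transcripts with StringTie 1.3.3 and compared groups with Cufflinks 2.2.1. They deposited raw counts per locus, without normalization, and the program that counted is not given in the sources used here. A second deposited table with their own levels, fold changes and p-values was not used. All 6 columns were mapped to samples by name.

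Loci were kept by filterByExpr (minimum of 10 counts, 15 in total), and edgeR 4.0.16 in R 4.3.3 fitted Yme1l siRNA against Scr siRNA without covariates (common biological coefficient of variation 0.131). In counts simulated for this comparison over 14499 loci, with 200 changed 2-fold, it recovered 153 and called 16 unchanged loci, or 9.47% of its calls. In the data 58.0% of loci were called, so the simulation does not show how the fit performs there. DESeq2 1.42.0, limma-voom (limma 3.58.1), other scalings and filters, a stricter threshold, a block on the replicate number and fits without each library in turn were alternatives. RPKM used exon lengths of GENCODE M21, promoters came from RefSeq (GRCm38.p6), and near-identical genes, at 95% identity or more over 200 bases, from BLAST 2.17.0. By rule, the 3 genes with the smallest adjusted p in each role and all that were not higher have values per culture, and from other lists the 3 with the smallest adjusted p in each direction are named. The values of *Orc2* per culture, and *E2f4* to *E2f8*, *Rbl1*, *Dna2* and *Kif11*, were added after their values were seen. The members and lists were chosen with earlier results of these data known.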

Additional observations from a re-analysis of the deposited data

How the results depend on the processing

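Of the 48 replication genes, 42 kept both their call and the sign of their change under all 15 alternatives, and the count of higher genes stayed between 39 and 41. Of the rest, *Orc2*, *Orc3*, *Orc5* and *Rpa3* changed their call, whereas *Pold3* and *E2f3* changed sign only and passed in no alternative. The count of lower genes was 0 to 1 when 1 library was left out (0 without Scr replicate 2 or Yme1l siRNA replicate 1) and 0 at an adjusted p under 0.01, at which *Orc2*, *Orc3* and *Rpa3* lost their calls. The count of lower genes among the further replication genes was 1 to 4 when 1 library was left out (1 without Scr replicate 1 or 2, 4 without Yme1l siRNA replicate 3) and 1 at an adjusted p under 0.01. Without Yme1l siRNA replicate 3 the median log2 fold change of the 48 genes was 0.62, and it ranged from 0.62 to 0.72 over the alternatives. *E2f3* changed sign when every locus with at least 1 count was tested, at -0.00038, and lay between -0.0019 (without Scr replicate 3) and 0.0132 when 1 library was left out. The count of lower E2F and DREAM regulators was 3 to 4 when 1 library was left out and 3 at an adjusted p under 0.01, with *E2f4* the gene that lost its call. *Pold3* reached from -0.025 to 0.19 when 1 library was left out. *Orc5* passed with a mean of at least 50 counts (adjusted p = 0.0461) and with the replicate number as a block (adjusted p = 0.0410). The cause was not tested in any of these cases. Other scalings moved the median of all loci by at most 0.0195. DESeq2 and limma-voom each gave 40 higher and 2 lower replication genes, as edgeR did.

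Groups share replicate numbers, and same-numbered libraries had correlations of 0.04, 0.12 and 0.19 between their deviations from the group means. Scr library 1 correlated best with Yme1l siRNA library 2 (0.09), and the remaining pairs with different numbers lay between -0.18 and -0.005. These small values do not decide whether the numbers are pairs. The main fit did not take them as pairs, and a fit with them as a block is given beside it. With the replicate number as a block, 41 replication genes were higher and 2 lower, 27 further replication genes were higher and 3 lower, and 4227 of all loci were higher and 4460 lower, against 4123 and 4288 without it. The balance of *Cdt1* against *Gmnn* was not run, since *Cdt1* matched no locus.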

Other observations

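Protein-coding genes that start within 1000 bases of a replication gene and run the other way were found for 12 of the 48 genes, and their changes are given as values only. *Ap4m1*, *Vps35* and *Tmem258*, the neighbours of *Mcm7*, *Orc6* and *Fen1*, fell, with log2 fold changes of -0.70, -0.31 and -0.33, while the replication genes beside them rose. *Prpf38a*, *Ufd1* and *Smyd4*, the neighbours of *Orc1*, *Cdc45* and *Rpa1*, rose, with log2 fold changes of 0.55, 0.55 and 0.55. *Pxmp2*, beside *Pole*, rose with one of 1.48 at 28 to 106 counts in a library, and *Slc25a40*, beside *Dbf4*, with one of 0.31. *Prkdc*, beside *Mcm4*, *Abhd12*, beside *Gins1*, and *Rars2*, beside *Orc3*, did not pass the test, at -0.04, 0.05 and -0.15. The joined locus that holds *Umad1*, beside *Rpa3*, rose with a log2 fold change of 0.32, while *Rpa3* fell.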
